A study of Homo sapiens with 4 samples.

Results

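The genes described here are 41 regulators of pre-mRNA splicing, taken by gene name from a table that lists 58174 human genes. They comprise 13 SR proteins, 20 heterogeneous nuclear ribonucleoproteins (hnRNPs, among them the polypyrimidine tract binding proteins PTBP1 and PTBP3), and 8 other regulators (RBFOX2, CELF1, MBNL1, MBNL2, QKI, YBX1, YBX3 and RBM39). All 41 were listed, and all reached 1 FPKM (sequenced fragments per length of gene and size of library) in at least 1 library, so all were tested.

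Transcripts were measured in LM3, labelled hepatocellular carcinoma, and RBE, labelled intrahepatic cholangiocarcinoma, which are established human liver cancer cell lines. Cells received by lipofection either si-FENDRR, an siRNA that targets FENDRR, a long noncoding RNA, or the control siRNA si-NC, and RNA was taken after 48 h. The 4 groups were therefore LM3 si-FENDRR, LM3 si-NC, RBE si-FENDRR and RBE si-NC, with 1 library each and no separate cultures named. No other agent is named for any group, and both lines were grown in the same medium. Values below are given in that order of libraries unless a sentence says otherwise.

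SR proteins carry RNA recognition motifs and a domain rich in arginine and serine, and many bind exonic enhancers and recruit the spliceosome to nearby splice sites. The hnRNPs coat nascent transcripts, and many of them hold exons out of the messenger RNA, so the balance of both families sets which exons are joined. MBNL, CELF, RBFOX and QKI proteins bind short motifs in introns and exons and switch whole groups of exons during differentiation. Many of these genes also tune their own output through exons that send the transcript to decay. In liver, SRSF3 and ESRP2 are known for their part in hepatocyte maturation. Gene levels were measured here, and exon use was not.

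The libraries held 13437 to 13682 genes at 1 FPKM or more, and the read depth is unknown because the files carry no counts. FENDRR and its neighbour FOXF1 were listed at 0 in all 4 libraries, so the target gives no check of the knockdown and the libraries are compared by label. Of 10 hepatocyte markers, 5 were at 1 FPKM or more in each line, but these were not the same genes. FGB, HNF4A and TF were in both lines, ALB (35.7 and 33.3 FPKM) and AFP were in LM3, and TTR and SERPINA1 were in RBE. ALB was at 0.251 and 0.270 FPKM in RBE and AFP was listed at 0 there, while SERPINA1 was at 0.0957 and 0.0892 FPKM in LM3 and, with 56.8 and 82.5 FPKM, made most of the RBE sum. The list summed to 98.4 to 103 FPKM for LM3 and to 78.9 to 107.6 for RBE. Of 9 cholangiocyte markers, 5 were at 1 FPKM or more in LM3 and 8 in RBE, and the list summed to 1106 to 1291 FPKM in LM3 and 1568 to 1611 in RBE. KRT7, at 429 and 391 FPKM in RBE and 7.21 and 6.02 in LM3, lay toward RBE, and SPP1, at 1118 and 909 FPKM for LM3 against 515 and 504 for RBE, lay toward LM3 and made most of the LM3 sum. The leukocyte marker CD3E was listed at 0 in every library. The part of these differences in the results below was not tested.

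The 250 bases upstream of the RefSeq start are shown for 3 members: YBX1, the most abundant; YBX3, listed at 0 in LM3; and HNRNPH2, which had the widest difference between transfections. YB-1, the product of YBX1, is named for binding the Y box, a promoter element that holds an inverted CCAAT. Capitals mark CCAAT or its reverse complement ATTGG, and each sequence runs 5′ to 3′ on the strand of its gene, from RefSeq on GRCh38.p14.
YBX1, chr1:42682168-42682417, plus strand: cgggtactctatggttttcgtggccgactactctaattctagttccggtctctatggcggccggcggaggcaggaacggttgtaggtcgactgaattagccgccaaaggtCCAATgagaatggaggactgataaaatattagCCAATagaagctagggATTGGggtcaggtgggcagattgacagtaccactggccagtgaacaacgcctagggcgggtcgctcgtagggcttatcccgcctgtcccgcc
YBX3, chr12:10723324-10723573, minus strand: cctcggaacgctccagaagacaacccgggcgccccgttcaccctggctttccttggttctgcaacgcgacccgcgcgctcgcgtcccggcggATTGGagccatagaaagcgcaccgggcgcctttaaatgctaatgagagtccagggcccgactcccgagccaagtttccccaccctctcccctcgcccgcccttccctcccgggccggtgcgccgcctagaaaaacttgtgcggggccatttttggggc
HNRNPH2, chrX:101407972-101408221, plus strand: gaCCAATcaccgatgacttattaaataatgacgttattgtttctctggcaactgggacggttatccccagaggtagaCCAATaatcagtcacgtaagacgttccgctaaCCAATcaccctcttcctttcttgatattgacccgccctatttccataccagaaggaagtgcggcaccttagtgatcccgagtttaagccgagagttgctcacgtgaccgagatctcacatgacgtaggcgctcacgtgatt
The YBX1 window holds 3 such matches, that of HNRNPH2 holds 3 and that of YBX3 holds 1. Across the RefSeq table, 35 of the 41 members had 57 promoters, and for 46 of these the 20 bases after the start lie in a GENCODE transcript of the member. The shares below cover all 57, some of which overlap, such as those of SRSF8, which hold the same match. The motif CCAAT, searched on both strands, was in 43.9% of the 57 and in 32.0% of all 35116 promoters of that length. At least 3 matches were in 10.5% of the members' promoters and in 2.93% of all, at least 4 in 1.75% and 0.874%, and at least 5 in 0% and 0.319%. CCAAT was not alone in this. The motifs GGGCGG (56.1% beside 42.6% of all), CACGTG (14.0% beside 6.34%) and TGACGT (12.3% beside 7.10%) were also more frequent in the members' promoters. TATAAA was in 10.5% beside 10.7%. The members' promoters also held more CpG (median 24 beside 11 of all) and more G and C (median 64.8% beside 58.0%). The part of base composition in the motif shares was not tested. The motif matches describe letters only, and binding was not measured.

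As a group the regulators were abundant transcripts. The median member was at 46.1, 40.3, 41.8 and 37.7 FPKM, where the median tested gene was at 6.42, 6.29, 5.51 and 5.35 FPKM. The members together held between 0.600% and 0.664% of all FPKM in a library. The hnRNPs were the more abundant class per length, with medians of 73.7, 72.0, 80.4 and 65.2 FPKM. The medians of the SR proteins were 27.2, 26.5, 22.0 and 20.6 FPKM.

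**Figure D1:**
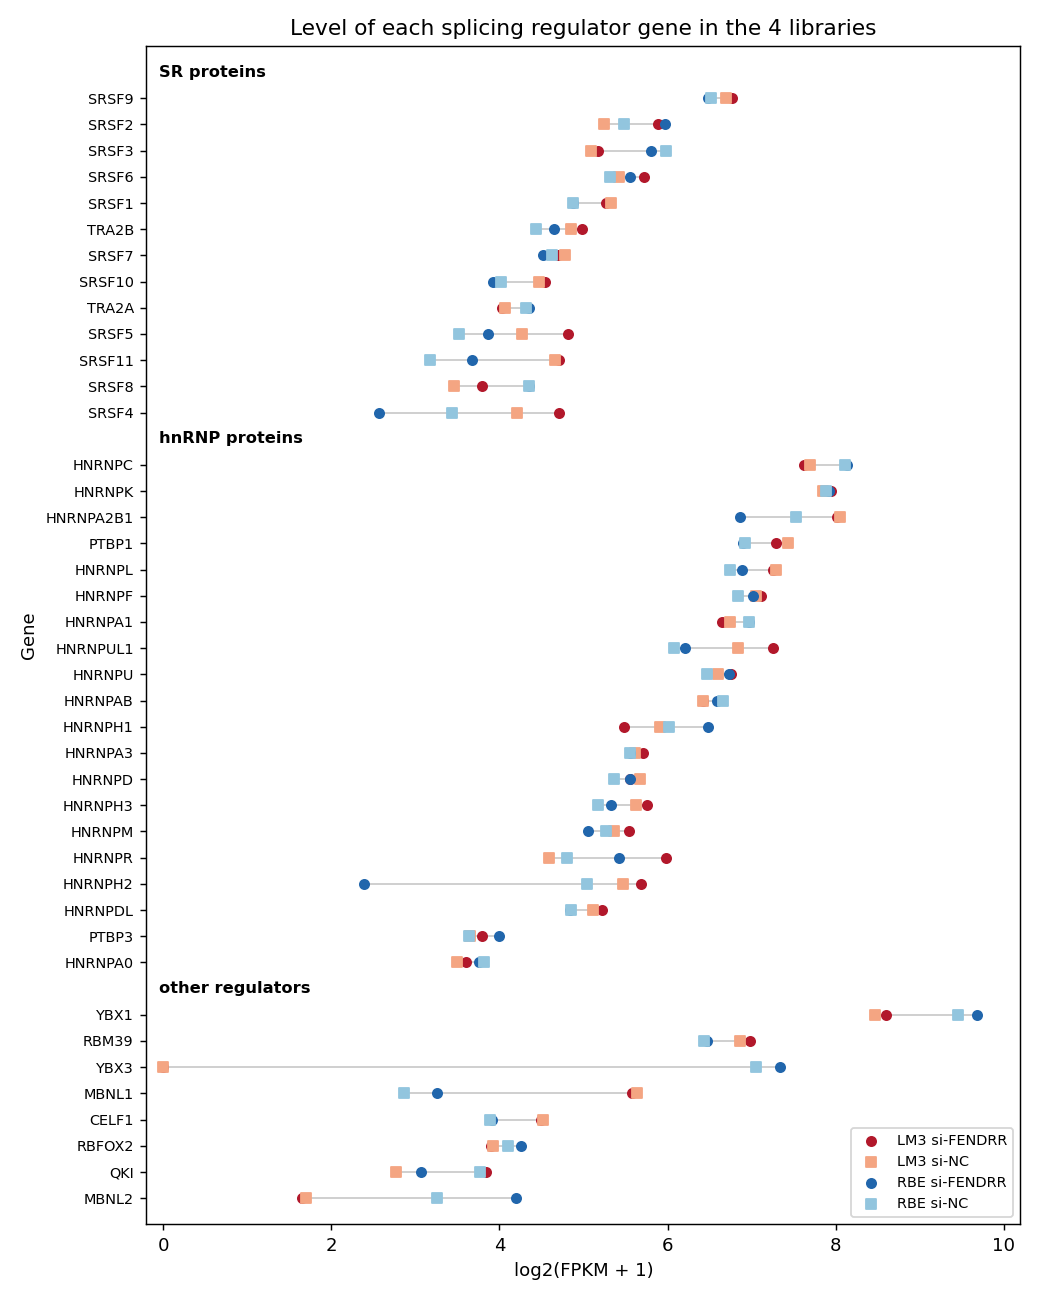
Level of each of the 41 genes in the 4 libraries, as log2(FPKM + 1), grouped by class and ordered by mean FPKM. Each point is 1 library (red for LM3, blue for RBE, circles for si-FENDRR, squares for si-NC), and the grey line spans the libraries. The points of most genes lie close together, while YBX3, MBNL1, MBNL2 and HNRNPH2 spread widest.

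YBX1, which encodes an RNA and DNA binding cold shock protein, led all members with 386, 354, 821 and 701 FPKM. HNRNPC, which binds uridine tracts and keeps cryptic exons from use, came next by mean over the libraries, with 196, 206, 281 and 275 FPKM, although in both LM3 libraries HNRNPA2B1 and HNRNPK lay above it. HNRNPK, which binds cytosine-rich RNA, was at 246, 229, 241 and 235 FPKM. Its libraries lay within a narrow band, and those of the lines overlapped. HNRNPF, which binds runs of guanine, was at 137, 132, 128 and 113 FPKM. At the other end, MBNL2, QKI, HNRNPA0, PTBP3 and SRSF4 had the lowest means. HNRNPA0, an hnRNP of the A and B group, was at 11.2, 10.3, 12.6 and 13.1 FPKM, and PTBP3, a relative of PTBP1, was at 12.8, 11.5, 14.9 and 11.5 FPKM.

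The first question was how the regulators differ between the lines. Of the 41 members, 19 (46.3%) were called by limma at an adjusted p under 0.05, where 58.7% of all 15930 tested genes were called. Higher in LM3 were 13 members (31.7%), beside 32.3% of all genes, and higher in RBE were 6 (14.6%), beside 26.4%. The share higher in LM3 was thus near the background and the share higher in RBE below it. The median difference between LM3 and RBE was 0.16 on the log2(FPKM + 1) scale over the members and 0.09 over all tested genes. The test treats the 2 libraries of a line as its replicates, with transfection as a second term. Its p-values thus measure how alike the line difference was under the 2 transfections, a spread that may be technical and is not one between independent cultures. Of the 22 members not called, the differences lay between -0.55 and 1.86.

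The count rested on all 4 libraries. With the line term alone it was 11 without the LM3 si-FENDRR library, 12 without LM3 si-NC, 8 without RBE si-FENDRR and 9 without RBE si-NC, and the share of all genes called then fell to between 35.0% and 43.8%. Of the 19 called members, MBNL1, CELF1, SRSF3, YBX1 and YBX3 kept the call in each of these fits, and the other 14 lost it in at least 1.

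**Figure D2:**
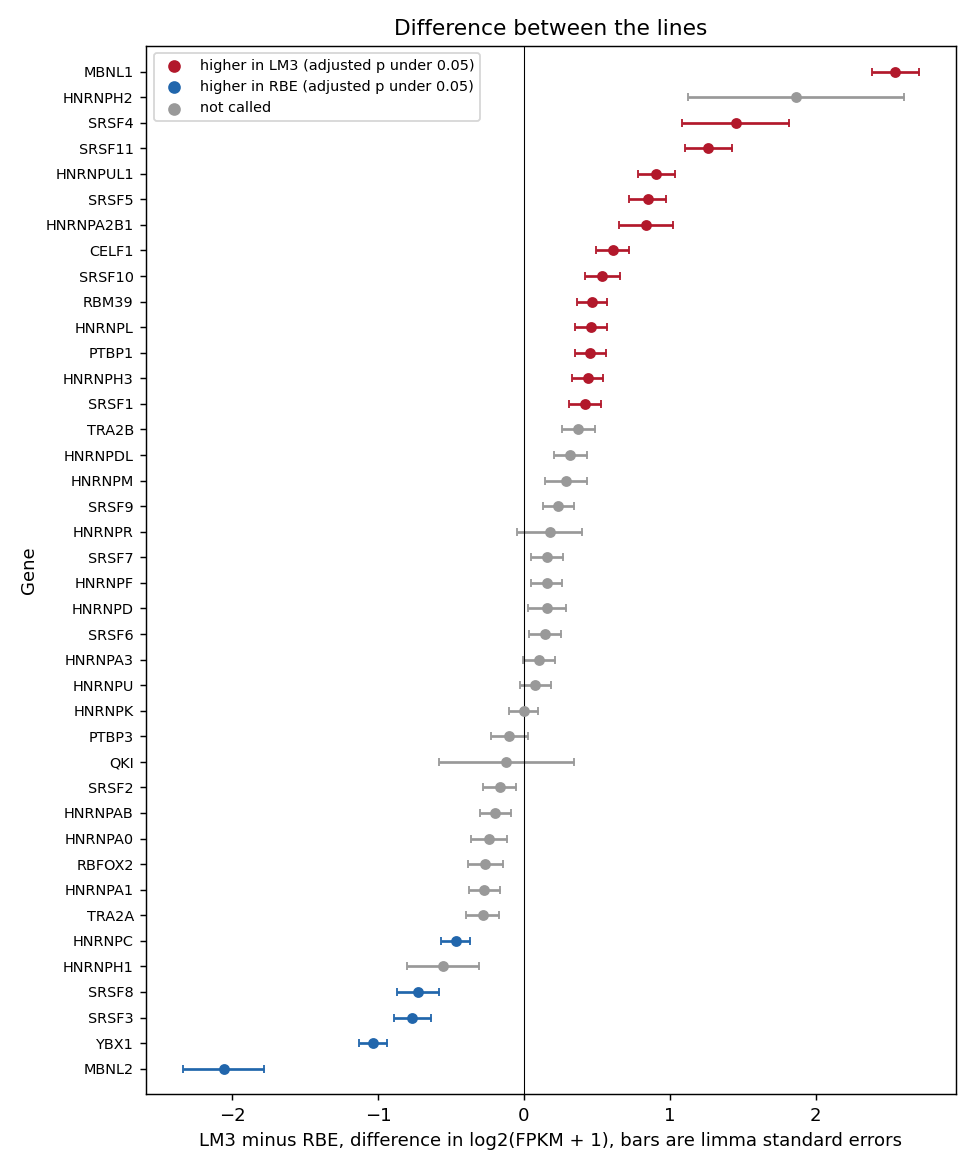
Difference between the lines for 40 of the genes (YBX3, listed at 0 in both LM3 libraries, is not drawn), as LM3 minus RBE in log2(FPKM + 1), with limma standard errors as bars. Red points were called higher in LM3, blue points higher in RBE and grey points were not called. MBNL1 lies farthest to the right at 2.55 and MBNL2 farthest to the left at -2.06.

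Among the 13 SR proteins, 5 were called higher in LM3 and 2 higher in RBE, together 53.8%, beside 58.7% of all genes. SRSF4, one of the larger SR proteins, was at 25.1 and 17.5 FPKM in the LM3 libraries, against 4.93 and 9.86 in RBE (1.45 ± 0.37, limma estimate of LM3 minus RBE with its SE in log2 units, adjusted p = 0.0335). The lines did not overlap, but each pair of libraries was wide apart, and SRSF4 lost its call in each of the fits with 1 library left out. SRSF11, an SR-related protein that acts with other SR proteins, was at 25.2 and 24.3 FPKM in the LM3 libraries, against 11.8 and 8.01 in RBE (1.26 ± 0.16, adjusted p = 0.00651). SRSF5, known to respond to growth signals, was at 27.2 and 18.2 FPKM in the LM3 libraries, against 13.6 and 10.5 in RBE (0.85 ± 0.12, adjusted p = 0.00889). In both genes every LM3 library was above every RBE library. SRSF5 also lost its call in each of the fits with 1 library left out, and SRSF11 lost its call without either LM3 library.

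SRSF10, which acts as a splicing repressor when dephosphorylated, was at 22.2 and 21.2 FPKM in the LM3 libraries, against 14.2 and 15.2 in RBE (0.54 ± 0.12, adjusted p = 0.0247). SRSF1, the founding member of the family, was at 37.5 and 39.2 FPKM in the LM3 libraries, against 28.3 and 28.4 in RBE (0.42 ± 0.11, adjusted p = 0.0362). Its level is uncertain, because 50.8% of the 50-base words of its transcripts also occur in AC015813.2, an overlapping gene model listed at 1.25 to 2.33 FPKM.

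SRSF3, the smallest SR protein, was higher in RBE, with 35.1 and 32.9 FPKM in the LM3 libraries against 54.9 and 62.2 in RBE (-0.76 ± 0.13, adjusted p = 0.0117). SRSF8 went the same way, at 12.8 and 9.98 FPKM in LM3 and 19.4 in both RBE libraries (-0.73 ± 0.14, adjusted p = 0.0177). The SR class thus held called genes in both directions. SRSF9 was the highest SR gene in every library, at 108, 103, 88.3 and 90.7 FPKM, with an adjusted p of 0.129 by limma. Its exons share 46.2% of their bases with GATC on the opposite strand, which was at 18.6, 16.2, 13.6 and 14.4 FPKM. TRA2B, which activates exons with purine-rich enhancers, was at 30.5, 27.8, 24.0 and 20.6 FPKM (0.37 ± 0.11, adjusted p = 0.0517). Its relative TRA2A was at 15.4, 15.8, 19.4 and 18.9 FPKM (-0.28 ± 0.11, adjusted p = 0.103). The ratio of TRA2B to TRA2A in FPKM was 1.99 and 1.76 in LM3 and 1.24 and 1.09 in RBE.

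Among the 20 hnRNPs, 5 were called higher in LM3 and 1 higher in RBE, together 30.0%, where 58.7% of all genes were called (32.3% higher in LM3 and 26.4% higher in RBE). HNRNPUL1, an hnRNP U-like protein, was at 152 and 114 FPKM in the LM3 libraries, against 72.7 and 66.7 in RBE (0.91 ± 0.13, adjusted p = 0.00791). HNRNPA2B1, an exon-skipping factor that also sorts RNA, was at 258 and 264 FPKM in the LM3 libraries, against 116 and 183 in RBE (0.84 ± 0.19, adjusted p = 0.0243). The RBE library with si-FENDRR was the lowest for HNRNPA2B1, and without it the difference was 0.51 with an adjusted p of 0.0535. HNRNPA1, its close relative, was at 98.9, 106, 124 and 124 FPKM (-0.27 ± 0.10, adjusted p = 0.0929) and passed the threshold after median-of-ratios scaling, at -0.36 with an adjusted p of 0.0420. The ratio of HNRNPA2B1 to HNRNPA1 was 2.60 and 2.48 in LM3 and 0.934 and 1.48 in RBE.

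HNRNPL, which binds CA repeats, was at 152, 155, 117 and 106 FPKM (0.46 ± 0.11, adjusted p = 0.0294). PTBP1, which represses exons by binding pyrimidine tracts, was at 156, 172, 119 and 119.8 FPKM (0.45 ± 0.11, adjusted p = 0.0270). HNRNPH3 was at 53.0, 48.3, 39.2 and 35.2 FPKM (0.44 ± 0.11, adjusted p = 0.0314). These 3 genes had small differences with no overlap between the lines. After median-of-ratios scaling HNRNPH3 (adjusted p = 0.0536) and SRSF1 (adjusted p = 0.0619) missed the threshold. HNRNPC was the hnRNP called higher in RBE (-0.47 ± 0.10, adjusted p = 0.0228). PTBP1 was 12.2 and 14.9 times as abundant as PTBP3 in LM3 and 7.96 and 10.4 times in RBE, and PTBP3 itself was not called (adjusted p = 0.528). The AU-rich element binding proteins HNRNPD and HNRNPDL stood at ratios of 1.27 and 1.49 in LM3 and 1.66 and 1.45 in RBE, which overlap between the lines.

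Of the 8 other regulators, 3 were called higher in LM3 and 3 higher in RBE, together 75.0%, beside 58.7% of all genes, and the widest called differences were among them. MBNL1 (chromosome 3, 152243828 to 152465780, plus strand), a muscleblind protein that promotes adult splicing patterns, was at 46.7 and 48.6 FPKM in the LM3 libraries, against 8.57 and 6.26 in RBE. Its mean FPKM was 6.43 times as high in LM3 (log2 difference 2.55 ± 0.16, adjusted p = 0.00179). MBNL2 (chromosome 13, 97221434 to 97394120, plus strand), the second muscleblind gene, lay the other way, at 2.14 and 2.24 FPKM in the LM3 libraries against 17.4 and 8.58 in RBE. Its mean FPKM was 5.93 times as high in RBE (-2.06 ± 0.28, adjusted p = 0.00735), a call lost without either LM3 library, at adjusted p of 0.0950 and 0.0909. The ratio of MBNL1 to MBNL2 was 21.8 and 21.7 in LM3 and 0.493 and 0.730 in RBE. No 50-base word of either gene's transcripts occurred in a transcript of another gene read in the sense direction. Genes on the opposite strand, such as MBNL1-AS1 given below, were not covered by this search.

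YBX3 (chromosome 12, 10699089 to 10723312, minus strand), a cold shock protein related to YBX1, was listed at 0 in both LM3 libraries and was at 160.4 and 131 FPKM in RBE (adjusted p = 0.000584). No fold is given against a listed 0, which can be a failed estimate. YBX1 itself was 2.06 times as high in RBE by mean FPKM (-1.03 ± 0.10, adjusted p = 0.00355). In RBE, YBX1 was 5.12 and 5.34 times as abundant as YBX3. YBX3 is among the 6 members counted as higher in RBE, and that call rests on the listed 0. For YBX1, 30.7% of its 50-base words also occur in other genes, mostly pseudogenes such as YBX1P1, which was listed at 12.0 to 20.2 FPKM.

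CELF1, which opposes MBNL proteins at many exons, was at 21.6 and 21.9 FPKM in the LM3 libraries, against 14.1 and 13.8 in RBE (0.61 ± 0.11, adjusted p = 0.0158). RBM39, an SR-related factor that works with U2AF, was at 125 and 115 FPKM in the LM3 libraries, against 87.3 and 85.8 in RBE (0.47 ± 0.11, adjusted p = 0.0250). RBFOX2, which binds UGCAUG, was at 14.0, 14.2, 18.1 and 16.2 FPKM (-0.26 ± 0.12, adjusted p = 0.136). For CELF1 and RBM39 the libraries of a line lay close together and the lines did not overlap. The lines did not overlap for RBFOX2 either. Its RBE libraries differed by 0.15 in log2 units, beside a line difference of -0.26, and it was not called.

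**Figure D3:**
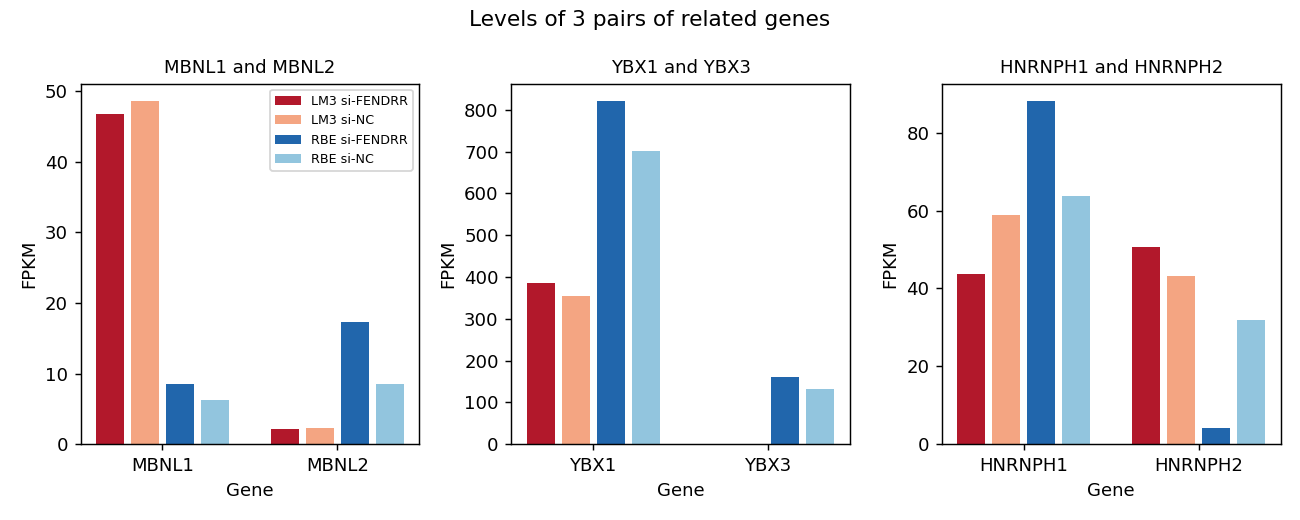
FPKM of 3 pairs of related genes in the 4 libraries, with 1 bar per library from a zero baseline. MBNL1 is high in LM3 and MBNL2 in RBE, YBX3 is listed at 0 in LM3, and HNRNPH2 is low in the RBE si-FENDRR library alone, at 4.22 FPKM.

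The second question was whether the regulators differ between si-FENDRR and si-NC. Over both lines, 0 of the 41 members and 0% of all tested genes were called by limma, and the smallest adjusted p of a member was 0.959. An unadjusted p under 0.05 was reached by 3 members (HNRNPR, SRSF2 and SRSF5) and by 657 of 15930 genes. With si-FENDRR, 14 members (34.1%) were higher in both lines, beside 26.9% of all genes, and 6 (14.6%) were lower in both, beside 21.8%. These counts moved with the scaling of the libraries. They were 17 and 3 with equal totals, beside 25.9% and 21.2% of all genes. With median-of-ratios scaling they were 12 and 9, beside 23.5% and 25.7% of all genes. Of the rest, 20 members (48.8%) lay in opposite directions, beside 7497 of 15930 genes, and YBX3 had no difference in LM3. The median member difference was 0.09 in LM3 and 0.04 in RBE, beside 0 and 0.02 over all genes, and in RBE it was -0.01 with median-of-ratios scaling.

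HNRNPR (chromosome 1, 23303771 to 23344336, minus strand), an hnRNP related to SYNCRIP, had the highest mean difference. It was at 62.3 FPKM with si-FENDRR and 23.2 with si-NC within LM3, and at 41.8 against 27.0 within RBE, so both si-FENDRR libraries lay above both si-NC libraries. The log2 differences were 1.39 in LM3 and 0.61 in RBE, with a mean of 1.00 ± 0.22 (SE, adjusted p = 0.959 by limma). SRSF2, an SR protein that binds both C-rich and G-rich enhancers, was at 57.9 against 36.8 FPKM within LM3, and within RBE at 61.8 against 43.6 (mean 0.57 ± 0.11, adjusted p = 0.959). Its exons share 36.7% of their bases with MFSD11 on the opposite strand, and whether strand was used in counting is not stated in the labels or headers. In the same order MFSD11 was at 13.4, 16.6, 11.5 and 8.89 FPKM.

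SRSF5 (mean 0.45 ± 0.12) and SRSF11 (0.28 ± 0.16) were also among the 5 highest, and the values above show them higher with si-FENDRR in each line. MBNL2 (0.45 ± 0.28) stood among them through RBE alone, where it was at 17.4 against 8.58 FPKM. In LM3 its level was 2.14 against 2.24 FPKM. None of these differences passed the threshold.

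HNRNPH2 (chromosome X, 101408295 to 101414133, plus strand), which binds runs of guanine as HNRNPH1 does, had the lowest mean difference. It was at 50.6 against 43.3 FPKM within LM3, and within RBE at 4.22 against 32.0, so the RBE si-FENDRR library stood apart from the other 3. On the log2 scale it differed by 0.22 within LM3 and by -2.66 within RBE, and HNRNPH2 was the 1 member at least 2-fold apart in RBE, beside 1.75% of all genes. This rests on 1 library against 1, with no test. The same library sets the line comparison of HNRNPH2, at 1.86 ± 0.74 (adjusted p = 0.0978) with all libraries, 0.53 (adjusted p = 0.106) without RBE si-FENDRR and 3.19 (adjusted p = 0.0173) without RBE si-NC.

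The readthrough model RPL36A-HNRNPH2 shares 362 exon bases with HNRNPH2. These are 16.3% of the exon bases of HNRNPH2 and 52.1% of those of the readthrough model. RPL36A-HNRNPH2 was at 45.0, 73.6, 0.682 and 50.3 FPKM. It was thus low in the same RBE library. The sum of both models was 95.6, 116.9, 4.90 and 82.2 FPKM, so it was low in that library as well. RPL36A, the upstream ribosomal protein gene, was at 411, 418, 373 and 326 FPKM and was not low there. HNRNPH1 was at 43.7, 58.9, 88.2 and 63.8 FPKM, highest in that library, with a line difference of -0.55 ± 0.25 (adjusted p = 0.126). The ratio of HNRNPH1 to HNRNPH2 was 0.865 and 1.36 in LM3, and within RBE it was 20.9 in the si-FENDRR library but 1.99 in the si-NC library.

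**Figure D4:**
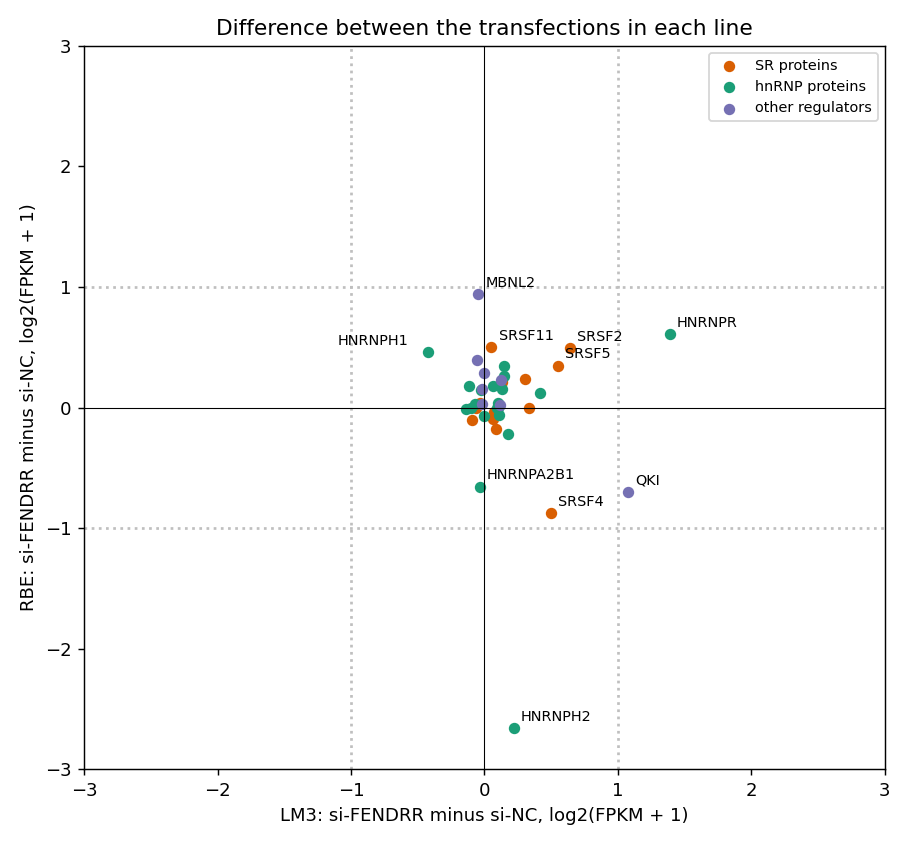
Difference between si-FENDRR and si-NC in log2(FPKM + 1), for LM3 on the horizontal axis and RBE on the vertical axis, with 1 point per gene coloured by class and dotted lines at a 2-fold difference of FPKM + 1. HNRNPH2 lies at -2.66 in RBE, HNRNPR is the gene farthest to the right at 1.39, and QKI lies at 1.08 in LM3 and -0.70 in RBE.

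In LM3, 2 members were at least 2-fold apart, HNRNPR and QKI, beside 2.13% of all genes. QKI (chromosome 6, 163414000 to 163578596, plus strand), a STAR family protein that also promotes circular RNAs, was at 13.3 against 5.80 FPKM within LM3, and within RBE at 7.41 against 12.7. Its differences of 1.08 and -0.70 had opposite signs, and the difference between the lines' responses was not tested. SRSF4 was likewise higher with si-FENDRR in LM3, at 0.50, and lower in RBE, at -0.87, with a mean of -0.19 ± 0.37. HNRNPA2B1 had differences of -0.04 and -0.66 (mean -0.35 ± 0.19). SRSF7, at 24.8, 26.5, 22.0 and 23.7 FPKM (mean -0.10 ± 0.11), and PTBP1 (mean -0.08 ± 0.11) completed the 5 lowest, and all their differences were small beside those of HNRNPH2.

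Exon overlap bears on 18 of the 41 members. Exon bases were shared with another listed gene on the same strand by 8 members and on the opposite strand by 14, and 23 shared none. Of these 23, 10 were called between the lines, 4 higher in LM3 and 6 higher in RBE. Of all genes, 58.7% were called, 32.3% higher in LM3 and 26.4% higher in RBE. MBNL1 shares 11.4% of its exon bases with the antisense gene MBNL1-AS1, listed at 0.0205 to 0.512 FPKM. HNRNPUL1 shares 3.29% with TGFB1, which was at 63.9, 74.3, 38.8 and 39.7 FPKM. HNRNPA2B1 shares 3.97% with CBX3, at 45.6, 49.6, 30.8 and 28.1 FPKM, and CELF1 shares 2.24% with NDUFS3, at 23.3, 24.0, 59.5 and 59.9 FPKM. By these values TGFB1 and CBX3 lay toward LM3 like their partners and NDUFS3 lay toward RBE, and the part of these overlaps in the results was not tested.

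Regulators known for restricted expression were mostly below the filter, with 14 of 30 tested. Of these, 2 were called higher in LM3 and 5 higher in RBE, where 58.7% of all genes were called. In this and the next 5 lists, the share over all genes was 32.3% higher in LM3 and 26.4% higher in RBE. These are 5147 and 4201 of 15930 genes. With median-of-ratios scaling the counts over all genes were 4762 and 4695, and with equal totals 5245 and 3983. ESRP2, an epithelial splicing regulator, was at 4.16 and 4.01 FPKM in the LM3 libraries, against 0.618 and 0.716 in RBE (1.61, adjusted p = 0.00298). CELF6 was at 1.23 and 1.62 against 0.0326 and 0.0649 FPKM. RBM38, a p53 target, and CELF2, a relative of CELF1, were listed at 0 in both LM3 libraries. In RBE, RBM38 was at 9.62 and 8.05 FPKM and CELF2 at 2.27 and 1.74 FPKM.

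Enzymes and importins that act on SR proteins split evenly, with 4 of 15 called in each direction, together 53.3%. SRPK2, which phosphorylates SR proteins in the cytoplasm, was at 42.0, 36.3, 15.0 and 12.2 FPKM, and CLK2, a nuclear SR kinase, was at 30.4, 25.0, 12.7 and 15.9. CLK4, of the same kinase family, was at 2.12, 1.52, 6.16 and 6.24 FPKM, and PPP1CA, the catalytic subunit of a phosphatase, was at 68.3, 90.9, 166 and 165. The kinases thus lay in both directions.

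SR-related proteins had 11 of 22 genes called higher in LM3 and 4 higher in RBE, together 68.2% beside 58.7% of all genes, with a median line difference of 0.42. The counts were 8 and 5 with median-of-ratios scaling and 11 and 2 with equal totals. SRRM2, a scaffold of nuclear speckles, was at 200 and 214 FPKM in the LM3 libraries, against 86.3 and 78.0 in RBE (1.32, adjusted p = 0.00316). SCAF4, which binds RNA polymerase II, was at 14.3, 11.8, 5.14 and 4.89 FPKM. ARGLU1 was at 9.94, 8.89, 16.9 and 16.2 FPKM and LUC7L, which associates with the U1 snRNP, at 11.8, 10.7, 17.5 and 20.8. With si-FENDRR, 12 genes of this list (beside 26.9% of all genes) were higher in both lines and 0 (beside 21.8%) were lower in both, while 0 were called. Equal totals gave 10 and 0, beside 25.9% and 21.2% of all genes. Median-of-ratios scaling gave 8 and 1, beside 23.5% and 25.7% of all genes.

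Components that recognise splice sites had 6 of 28 genes called higher in LM3 and 5 higher in RBE, together 39.3% beside 58.7% of all genes. The counts moved with the scaling, to 5 and 8 with median-of-ratios scaling and 6 and 3 with equal totals. Those of all genes also moved, as given above. SNRNP70, the U1 protein that SR proteins contact, was at 107 and 104 FPKM in the LM3 libraries, against 38.4 and 45.1 in RBE (1.32, adjusted p = 0.00354), and SF3B4 was at 169, 147, 75.6 and 76.7 FPKM. SF3B6, which contacts the branch site, was at 24.9, 24.8, 83.2 and 87.5 FPKM (-1.74, adjusted p = 0.00173). These U2 subunits thus differed in opposite directions. SNRPA of the U1 snRNP was at 17.9, 16.0, 43.7 and 18.1 FPKM, at least 2-fold apart in RBE, and SNRPD2 of the Sm ring was at 294, 108, 152 and 119, at least 2-fold apart in LM3.

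The tri-snRNP and catalytic components had 7 of 32 genes called higher in LM3 and 8 higher in RBE, together 46.9% beside 58.7% of all genes. The counts were 7 and 11 with median-of-ratios scaling and 7 and 7 with equal totals. PRPF3 was at 55.9, 52.9, 28.6 and 30.3 FPKM and TXNL4A at 32.2, 31.8, 17.9 and 20.5. PRPF4, a partner of PRPF3 in the same particle, was at 13.5, 13.9, 28.3 and 31.5 FPKM, and the helicase DHX8 was at 8.73, 13.8, 18.8 and 23.4. Other RNA-binding regulators had 7 of 35 called higher in LM3 and 6 higher in RBE, together 37.1%, and 6 and 6 with median-of-ratios scaling. RBM3, a cold-inducible protein, was at 50.7, 40.0, 17.7 and 15.2 FPKM and RBM6 at 27.3, 18.5, 11.0 and 8.66. RBM22 of the catalytic spliceosome was at 13.6, 11.0, 21.3 and 25.1 FPKM, and the paraspeckle protein PSPC1 was at 10.1, 10.3, 19.3 and 18.7. In none of these 6 lists was a gene called between the transfections by limma, and 0 to 3 genes of a list had an unadjusted p under 0.05.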

How the data were processed

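Messenger RNA of 4 libraries was deposited as FPKM per gene, per the file headers, and FPKM is the authors' scaling to gene length and mapped fragments. Reads were handled with FastQC and HISAT2 on hg38, per the submitters' processing notes. The program and annotation behind FPKM, the strand setting and the handling of reads that match more than 1 gene were not given in the sources used here. Only 8.39% to 11.8% of low values came within 0.02 of whole multiples of 1 step, so reads were not recovered and no depth, interval or detection floor is given.

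Here log2(FPKM + 1) of 15930 genes with FPKM of at least 1 in any library went into limma 3.58.1 (R 4.3.3) with a trended prior variance, with terms for line and transfection, 1 residual degree of freedom and a Benjamini-Hochberg threshold of 0.05 over all these genes. The lines pair the transfections, per the labels. Within a line, genes at least 2-fold apart in FPKM + 1 were counted, with no test. The line test was tested on simulated data of 15930 genes: of 200 genes changed 2-fold, 197 were called, with 30 unchanged genes, so 13.2% of the calls were false. Of 200 changed 4-fold or 8-fold, 200 were called, with 35 and 47 unchanged genes (14.9% and 19.0% of the calls). False calls in the simulated data thus ran above the 5% that the threshold names. Only 200 genes were changed there, with no transfection effect, while 58.7% of the measured genes were called. These shares are therefore no estimate of the false share among the line calls above. Log2 differences understate changes of low genes. Of 41 members, 39 have the same start and end in GENCODE release 29 (GRCh38), which gave coordinates, exon overlaps and 50-base words shared between transcripts of genes.

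The members and lists were chosen with earlier results of these data known. Besides the members there were lists of regulators restricted to tissues, SR kinases, phosphatases and importins, SR-related proteins, U1 and U2 snRNP and 3′ splice site recognition, tri-snRNP and catalytic spliceosome, other RNA-binding regulators, and markers of hepatocytes, cholangiocytes, mesenchymal cells, leukocytes and endothelium. Named with values were the 10 members farthest toward each line, every member at least 2-fold apart within a line, the 5 highest and 5 lowest by mean transfection difference, the 10 most and 5 least abundant, related pairs, overlapping genes and 2 genes toward each line from each list. Other called members, SRSF9, TRA2B and, of the lists, SNRPD2 were named after their values were seen. Alternatives covered pseudocount, scaling, filter, model terms, single libraries left out and the fold rule.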

Additional observations from a re-analysis of the deposited data

Results flagged for a closer look

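QKI lay in opposite directions between si-FENDRR and si-NC in the lines, higher in LM3 and lower in RBE, each by at least 1.5-fold in FPKM + 1. The difference in LM3 was larger than that in RBE by 1.77 on the log2(FPKM + 1) scale. With 1 library per group, this difference between the lines was not tested.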

How the results depend on the processing

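The 19 members called between the lines became 11 (6 higher in LM3, 5 in RBE) with no filter on low values, where 34399 genes were tested and 24.3% called. Leaving out 1 library at a time, with the line term alone and the lone library of a line assumed to vary like those of the other line, gave 8 to 12. Among the 23 members that share no exon bases, an alternative added after seeing the data, 10 were called, beside 58.7% of all genes. The other settings gave 18 to 20, of which 17 to 19 were among the 19. The paired analysis takes the line as the block. Without the replicate block for transfection the line count was 20, and without the replicate block for line 0 members were called between transfections, so the block changed no call of that comparison. No other setting called a member there, with smallest adjusted p of 0.930 to 1.00. In LM3, 1 member was at least 2-fold apart with a pseudocount of 5. In RBE, 2 were with a pseudocount of 0.1 and 6 were at least 1.5-fold apart. In LM3, HNRNPR, QKI and SRSF2 were at least 1.5-fold apart. The shares of all genes given above, 2.13% in LM3 and 1.75% in RBE, are for the 2-fold rule on FPKM + 1. The counts under the other rules have no such share beside them and are not read as a result about the members. Of 24 named line differences, 0 reversed in 263 alternatives, and of 6 named transfection differences 0 reversed in 24. Leaving out single libraries aside, called differences lost the call in 10 of 132 settings. The unknown depth limits all low values, and 1 library per group leaves the within-line differences with no replicate check.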

Other observations

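Mesenchymal markers, leukocyte markers and endothelial markers were summed in each library. The 5 mesenchymal markers summed to 966, 957, 898 and 975 FPKM, with opposite members behind the like sums. FN1 was at 939, 932, 35.2 and 37.2 FPKM and VIM was at 3.45, 3.33, 820.3 and 897 FPKM. The 4 leukocyte markers summed to 60.2, 62.3, 14.4 and 14.0 FPKM, nearly all of it CD68, and the 3 endothelial markers to 3.10, 3.88, 0.544 and 0.493 FPKM.

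Copies of hnRNP genes took FPKM of their own. HNRNPA1 shares 22.8% of its 50-base words with other genes, of which the pseudogene HNRNPA1P10 was at 6.81, 4.68, 5.48 and 6.66 FPKM. HNRNPA3 shares 16.5%, and HNRNPA3P6 was at 4.64, 3.28, 2.63 and 1.93 FPKM. HNRNPC shares 5.92%, and HNRNPCP2 was at 6.69, 4.73, 5.40 and 5.41 FPKM. How reads were divided among these genes and their copies was not stated in the labels or headers.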
